A study of Mus musculus with 4 samples.

Results

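The genes described here are 35 interferon-stimulated genes, named one by one in a list of genes that type I interferon induces, and followed through tumours grown from SCC7 cells, a mouse head and neck squamous carcinoma line. They were chosen by name and not by a threshold on these data, though with earlier results of these data known. Transcripts of 33 of the 35 were found, among 17574 genes in all, and Mx1 and Mx2 were not analysed here. The tumours grew under the skin of wild-type C3H/HeN mice and were taken on day 10. The 2 anti-CD71 libraries came from tumours of mice that had received anti-CD71, an antibody to the transferrin receptor that brings iron into cells, on day 6 and again on day 9. The 2 control libraries have the same cell line, host strain, genotype and harvest day, and the labels name no control antibody. The labels do not say whether each library came from a mouse of its own, so the p-values measure only the spread between these libraries.

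Abundance is given as TPM, which is scaled to the library total, summed over the RefSeq transcripts of a gene, in libraries made from total tumour RNA, so host and tumour cells are measured together. TPM is also scaled for transcript length, and how many reads lie behind a value is unknown. Both controls and anti-CD71 replicate 2 list 59881 transcripts each. The values of anti-CD71 replicate 1 used here end inside a line after 13586 transcripts, 22.69% of that number, and a transcript not reached there is missing and not 0. Of the 33 genes, 15 had at least 1 transcript listed for anti-CD71 replicate 1 and 18 had none. The listed transcripts carried at least 90% of the gene's TPM for 5 genes (Ifit3, Ifit3b, Usp18, Samd9l and Ifi35) and at least 50% for 9 (these and Rtp4, Ifih1, Zbp1 and Oas1a).

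Type I interferons are secreted cytokines that signal through a receptor made of IFNAR1 and IFNAR2 and the kinases JAK1 and TYK2. The kinases activate transcription factors, STAT2 among them, which join IRF9 in a complex that binds a DNA element called the interferon-stimulated response element and turns on a large set of antiviral genes. In tumours the same genes can be expressed by malignant, stromal and immune cells alike.

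The core of that element was searched for as GAAA, any 2 bases and GAAA again, on both strands (so TTTC, any 2 bases and TTTC on the other), with overlapping matches counted separately, in RefSeq promoter windows from 250 bases before to 50 bases after a start site on GRCm38.p6. A window was found for 26 of the 33 genes, and 13 of these 26 held a match, against 1079 of 27025 genes (3.99%). At least 2 matches were found in 6 of the genes (Ifit1, Ifit3, Ifit3b, Oas1a, Isg15 and Bst2), against 72 of all genes (0.266%). A match is a string of letters and not a measured binding site. Of the 9 genes read in all 4 libraries from at least 50% of their TPM, 4 held a match, 2 held none in this window and 3 had no window. The stretches below lie before the start site that RefSeq's promoter table uses and run 5′ to 3′ on the strand of the gene, with matches in capitals. RefSeq's gene spans of Ifit3, Ifit3b and Oas1a reach upstream of that start site, so only 30 bases at a match are shown for them. The neighbours Ifit3 and Ifit3b (chr19:34583397-34583426 and chr19:34607793-34607822, both plus strand) are shown at the nearer of their 2 matches. Isg15 (chr4:156200819-156200918, minus strand) and Oas1a (chr5:120907526-120907555, minus strand) show overlapping matches, and Ifi35 (chr11:101448312-101448411, plus strand) shows a window with none.
Ifit3: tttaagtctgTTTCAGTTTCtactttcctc
Ifit3b: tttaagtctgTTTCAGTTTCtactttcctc
Isg15: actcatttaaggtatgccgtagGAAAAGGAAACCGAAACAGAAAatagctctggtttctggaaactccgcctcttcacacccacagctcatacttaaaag
Oas1a: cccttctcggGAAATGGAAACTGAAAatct
Ifi35: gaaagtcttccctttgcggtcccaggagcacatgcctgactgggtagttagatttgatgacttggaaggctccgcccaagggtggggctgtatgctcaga
The Ifit3 and Ifit3b windows, 300 bases each, were identical at 259 of 260 aligned bases (99.6%, gaps left out). The likeness of their transcripts was not measured. How reads were shared between these neighbours is not given in the sources used here, so the separate values of Ifit3 and Ifit3b are uncertain.

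The interferon-stimulated genes whose main transcripts could be read in all 4 libraries were highest in anti-CD71 replicate 1. In anti-CD71 replicate 2 most of them lay near the control level, with Zbp1 below both controls. Over the transcripts listed for all 4 libraries, each of the 9 genes with at least 50% of its TPM listed stood above both controls and above anti-CD71 replicate 2 in anti-CD71 replicate 1, by 1.53 to 3.52 times the control mean. Among all 2523 genes listed to that extent, 30.4% stood above both controls in anti-CD71 replicate 1 and 36.9% above anti-CD71 replicate 2. In bulk tissue, a change in the number of cells that carry a transcript and a change in the transcript per cell cannot be told apart.

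Ifit3, a member of the IFIT family of antiviral proteins (chr19:34583119-34588982), measured 107.34 and 93.69 TPM in the controls, 331.26 TPM in anti-CD71 replicate 1 against 107.25 TPM in anti-CD71 replicate 2. Ifit3b, its neighbouring copy (chr19:34607530-34613403), measured 25.14 and 21.15 TPM in the controls, 81.49 TPM in anti-CD71 replicate 1 against 26.89 TPM in anti-CD71 replicate 2. Anti-CD71 replicate 1 was thus 3.3 times the control mean for Ifit3 and 3.52 times for Ifit3b, while anti-CD71 replicate 2 was 1.07 and 1.16 times. Usp18, the protease that removes ISG15 from proteins and damps signalling at the interferon receptor (chr6:121245906-121270917), measured 46.29 and 35.63 TPM in the controls. It reached 123.14 TPM in anti-CD71 replicate 1, with 43.77 TPM in anti-CD71 replicate 2, the latter lying between the controls. Ifi35, an interferon-induced leucine zipper protein (chr11:101448412-101458701), measured 70.29 and 63.29 TPM in the controls, 124.61 TPM in anti-CD71 replicate 1 against 66.86 TPM in anti-CD71 replicate 2. Samd9l, an interferon-induced antiviral factor (chr6:3372257-3399571), had the smallest ratio of the 9 genes, with 38.26 and 33.55 TPM in the controls, 54.84 TPM in anti-CD71 replicate 1 against 37.44 TPM in anti-CD71 replicate 2. For these 5 genes only anti-CD71 replicate 1 stood clear of the other 3 libraries.

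For the other 4 genes the values cover 55.2% to 89.4% of the gene's TPM. Oas1a, a synthetase that makes the 2-5A signal for RNase L on sensing double-stranded RNA, measured 41.64 and 40.15 TPM in the controls, 92.69 TPM in anti-CD71 replicate 1 against 40.46 TPM in anti-CD71 replicate 2. Rtp4, a receptor transporter protein with antiviral activity, measured 76.14 and 63.02 TPM in the controls, against 132.53 and 74.76 TPM in the 2 anti-CD71 libraries. In both genes anti-CD71 replicate 2 lay between the controls. Ifih1, the cytosolic RNA sensor MDA5, measured 25.53 and 20.22 TPM in the controls, 36.46 TPM in anti-CD71 replicate 1 against 20.23 TPM in anti-CD71 replicate 2. Zbp1, a sensor of Z-form nucleic acids, measured 129.36 and 109.95 TPM in the controls, and the 2 anti-CD71 libraries lay on opposite sides of them, at 188.03 and 88.10 TPM.

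**Figure D1:**
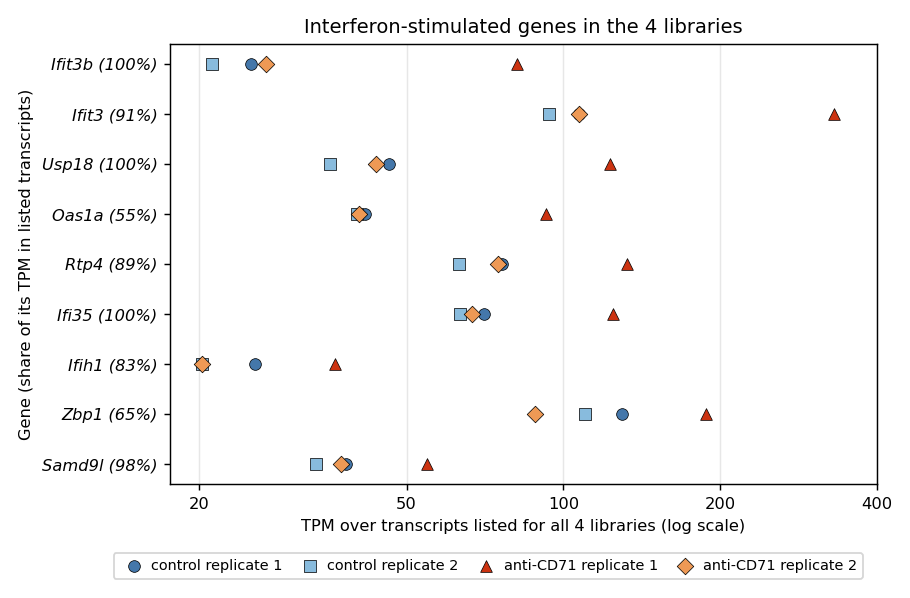
TPM on a log scale over the transcripts listed for all 4 libraries, for the 9 interferon-stimulated genes with at least 50% of their TPM listed; each point is 1 library and the percentage after a gene is the share of its TPM listed. Anti-CD71 replicate 1 lies to the right of the other 3 libraries in each of the 9 rows.

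The remaining 6 genes with a listed transcript had under 50% of their TPM listed, so their values describe minor transcripts. Irf7, the transcription factor that amplifies interferon production, measured 18.30 and 11.19 TPM in the controls, 37.87 TPM in anti-CD71 replicate 1 against 13.34 TPM in anti-CD71 replicate 2, over 12.1% of its TPM. Oas2, another 2-5A synthetase, measured 8.52 and 8.14 TPM in the controls, against 14.78 and 7.95 TPM in the 2 anti-CD71 libraries, over 33.3% of its TPM. Both were highest in anti-CD71 replicate 1. Irf9, the DNA-binding subunit of the complex with STAT2, ran from 4.36 to 8.16 TPM over its listed transcript, also highest in anti-CD71 replicate 1. The listed transcripts of Xaf1, Ifi27l2a and Oas3 stayed at or under 2.58 TPM in every library. With Oas3 left out by the filter of 1 TPM in 2 libraries, 13 of 14 genes with a listed transcript stood above both controls in anti-CD71 replicate 1, against 30.2% of all genes with one, and Ifi27l2a lay between the controls. All 14 were higher in anti-CD71 replicate 1 than in anti-CD71 replicate 2, against 41.2% of all genes with one.

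Tested as 2 anti-CD71 against 2 control libraries, 0 of the 5 genes with at least 90% of their TPM listed passed in either direction, in limma on log2(TPM + 1) with Benjamini-Hochberg adjustment at 0.05. Over all 1563 genes tested, 13 (0.832%) were called higher and 54 (3.45%) lower, and with each library centred on its median the split was 21 higher and 36 lower. At an unadjusted p under 0.05, 416 genes passed. For Ifit3 the log2 change was 0.90 (SE 0.49, limma adjusted p = 0.287), for Ifit3b 1.00 (SE 0.48, adjusted p = 0.244) and for Usp18 0.84 (SE 0.46, adjusted p = 0.29). The spread between the 2 anti-CD71 libraries was as wide as these changes, with a mean of 219.25 TPM ± 158.40 (SD, n = 2) for Ifit3 beside 100.52 TPM ± 9.65 (SD, n = 2) in the controls. For Ifi35 the log2 change was 0.45 (SE 0.28, adjusted p = 0.343), and for Samd9l 0.33 (SE 0.18, adjusted p = 0.299). Both anti-CD71 libraries stood above both controls for 1 of the 5 genes, Ifit3b, against 28.3% of all genes tested.

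Set alone against both controls, anti-CD71 replicate 1 was higher in 4 of the 5 genes, against 0.710% of the 1550 genes tested (11 genes higher and 22, or 1.42%, lower; 9 and 7 with median scaling), with the single treated library assumed to vary as the controls do. The log2 change was 1.71 for Ifit3 (SE 0.10, limma adjusted p = 0.0039), 1.78 for Ifit3b (SE 0.13, adjusted p = 0.00608), 1.58 for Usp18 (SE 0.16, adjusted p = 0.0169) and 0.89 for Ifi35 (SE 0.10, adjusted p = 0.021). Samd9l did not pass, at 0.60 (SE 0.11, adjusted p = 0.0613). When genes with at least 50% of their TPM listed were taken in, 3 of 9 genes passed against 0.200% of 2500 genes. These were Ifit3 (limma adjusted p = 0.039), Ifit3b (adjusted p = 0.0456) and Oas1a, whose log2 change was 1.16 (SE 0.08, adjusted p = 0.0435), while Usp18 and Ifi35 no longer passed (adjusted p = 0.0712 for both). With the filter of 1 TPM in 1 library, 2 of the 5 genes passed, Ifit3 and Ifit3b, and with no filter on low values 0 passed (limma adjusted p = 0.321 for each). In size, 4 of the 5 genes were at least 1.5 times the higher control in anti-CD71 replicate 1, against 1.66% of all genes listed to 90%. The same 4 genes were also at least 1.5 times anti-CD71 replicate 2, against 0.896%. The median log2 difference of the 5 genes from the control mean was 1.58 in anti-CD71 replicate 1, beside -0.04 over all genes, and 0.10 in anti-CD71 replicate 2, beside 0.02 over all genes. Both differences are taken from the same 2 controls.

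**Figure D2:**
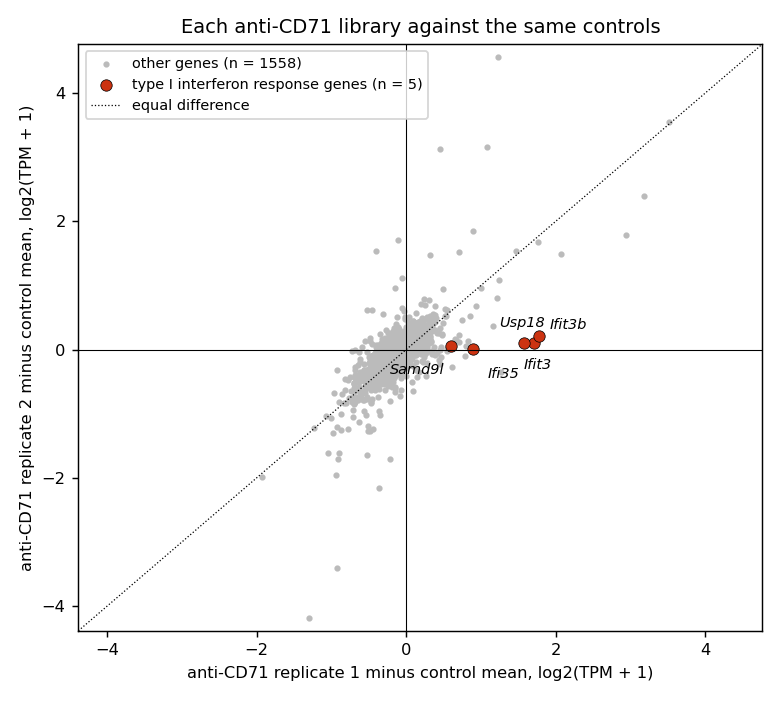
Difference from the control mean on the log2(TPM + 1) scale for anti-CD71 replicate 1 (horizontal) and anti-CD71 replicate 2 (vertical), 1 point per gene with at least 90% of its TPM listed; both axes use the same controls. The 5 interferon-stimulated genes run from 0.60 to 1.78 on the horizontal axis and from 0.00 to 0.21 on the vertical axis.

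The whole of all 33 genes could be read in the 3 complete libraries, both controls and anti-CD71 replicate 2, and there most lay close to the controls. None was called higher in anti-CD71 replicate 2 and 1 of 33, Ifi27l2a, was called lower, against 0.476% of 11982 genes tested called higher (57) and 2.39% lower (286), with limma and Benjamini-Hochberg adjustment at 0.05. Here too 1 treated library was set against 2 controls. Each SE and p rests on the spread between the controls, moderated by a variance trend over all genes tested. The treated library is assumed to share that spread. At an unadjusted p under 0.05, 2961 of all genes passed. The log2 changes ran from -0.68 to 0.55 with a median of -0.02, and 30 of the 33 lay within 0.5 of the control mean. Anti-CD71 replicate 2 stood above both controls in 6 genes (39.5% of all genes), below both in 11 (42.5%) and between them in 16 (18.0%). All 33 passed the filter on low values, with control means from 14.59 TPM for Cmpk2 to 554.81 TPM for Ifi27l2a.

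**Figure D3:**
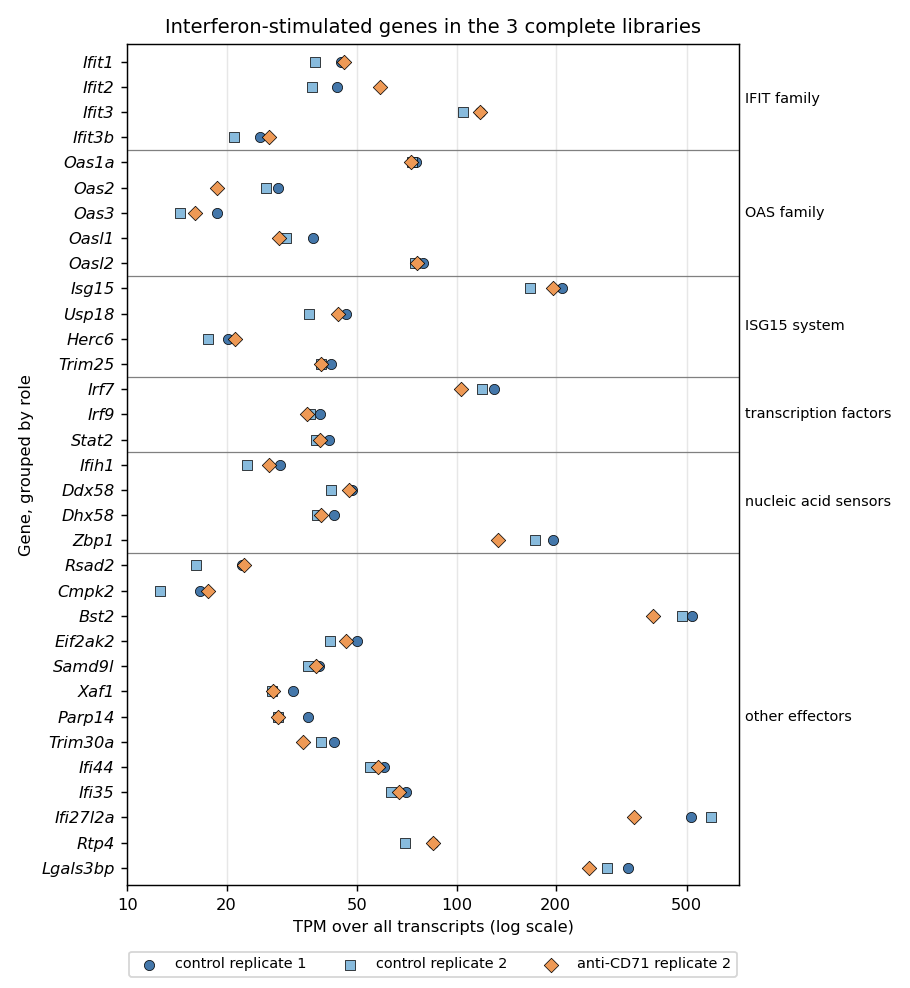
TPM on a log scale over all transcripts of each of the 33 genes in the 3 complete libraries, grouped by role; each point is 1 library. Anti-CD71 replicate 2 lies close to the controls in most rows and to their left in Ifi27l2a, Bst2, Zbp1, Oas2 and Lgals3bp.

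In the IFIT family, antiviral proteins some of which bind foreign RNA and block its translation, 0 of 4 genes passed and all 4 log2 changes were at or above 0.08. Ifit1 measured 44.69 and 37.07 TPM in the controls and 45.50 TPM in anti-CD71 replicate 2. Ifit2 had the highest log2 change of the 33 genes, 43.45 and 36.37 TPM in the controls against 58.72 TPM, without passing (0.55, SE 0.13, limma adjusted p = 0.0898). In the OAS family 0 of 5 passed, with log2 changes from -0.53 to -0.02. Oas2 measured 28.76 and 26.41 TPM in the controls and 18.73 TPM in anti-CD71 replicate 2 (-0.53, SE 0.10, limma adjusted p = 0.067). Oasl1, a restrainer of Irf7 translation in the mouse, measured 36.72 and 30.43 TPM in the controls and 28.87 TPM in anti-CD71 replicate 2, just under the lower control. For Oasl2, Oas1a and Oas3 the log2 changes were -0.02, -0.03 and -0.03.

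The ISG15 system attaches a small ubiquitin-like protein to other proteins, and 0 of its 4 genes passed. Isg15 itself (chr4:156199424-156200818) measured 208.77 and 167.02 TPM in the controls and 196.65 TPM in anti-CD71 replicate 2, between the controls. Herc6, the main ISG15 ligase of the mouse, measured 20.22 and 17.56 TPM in the controls and 21.26 TPM in anti-CD71 replicate 2. Trim25, a ubiquitin ligase that activates the RNA sensor RIG-I, measured 41.53, 38.80 and 38.76 TPM in the same order. Of the Trim25 value, 99.3% was assigned to a copy of the transcript at a second locus.

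Of the 3 transcription factors 0 passed. Irf7 measured 129.94 and 119.77 TPM in the controls and 103.19 TPM in anti-CD71 replicate 2, below both (-0.27, SE 0.09, limma adjusted p = 0.148). Irf9 stood at -0.08 and Stat2 at -0.02 on the log2 scale. Among the 4 sensors 0 passed. Ddx58, which encodes RIG-I, measured 48.19 and 41.46 TPM in the controls and 46.97 TPM in anti-CD71 replicate 2, and Dhx58, which encodes its relative LGP2, measured 42.47, 37.65 and 38.81 TPM. Ifih1 stood at 0.05 on the log2 scale. Zbp1 measured 196.22 and 172.71 TPM in the controls and 133.41 TPM in anti-CD71 replicate 2, below both (-0.46, SE 0.10, limma adjusted p = 0.0801).

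Among the 13 other effectors, Ifi27l2a, a small interferon-induced protein and the most abundant gene of the 33 in the controls, was called lower. It measured 515.29 and 594.33 TPM in the controls and 345.27 TPM in anti-CD71 replicate 2 (-0.68, SE 0.10, limma adjusted p = 0.0465). That call was lost with a filter of 1 TPM in 1 library (adjusted p = 0.167), with no filter on low values (adjusted p = 0.235) and with median scaling (adjusted p = 0.0573). Bst2, or tetherin, which holds budding virus at the cell surface, measured 520.24 and 485.60 TPM in the controls and 394.54 TPM in anti-CD71 replicate 2 (-0.35, SE 0.07, adjusted p = 0.0738). Lgals3bp, a secreted galectin-binding glycoprotein, measured 331.48 and 286.84 TPM in the controls and 251.98 TPM in anti-CD71 replicate 2 (-0.29, SE 0.10, adjusted p = 0.176). All 3 of these abundant genes stood below both controls. Rsad2, or viperin, an antiviral radical-SAM enzyme, measured 22.27 and 16.15 TPM in the controls and 22.61 TPM in anti-CD71 replicate 2. Cmpk2, a mitochondrial nucleotide kinase and the chromosomal neighbour of Rsad2, measured 16.61, 12.58 and 17.60 TPM. Both were just above the higher control.

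The other 8 effectors had log2 changes from -0.25 to 0.13, and 0 of them passed. Eif2ak2, the kinase PKR that halts translation on sensing double-stranded RNA, measured 49.86 and 41.13 TPM in the controls and 46.20 TPM in anti-CD71 replicate 2. Trim30a, a TRIM family protein, measured 42.56, 38.80 and 34.08 TPM in that order and was the lowest of the 8 by log2 change. Parp14, an ADP-ribosyltransferase, stood at -0.15, Xaf1, a partner of the apoptosis inhibitor XIAP, at -0.10, Ifi44 and Ifi35 at 0.00, Samd9l at 0.02 and Rtp4 at 0.13 on the log2 scale.

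**Figure D4:**
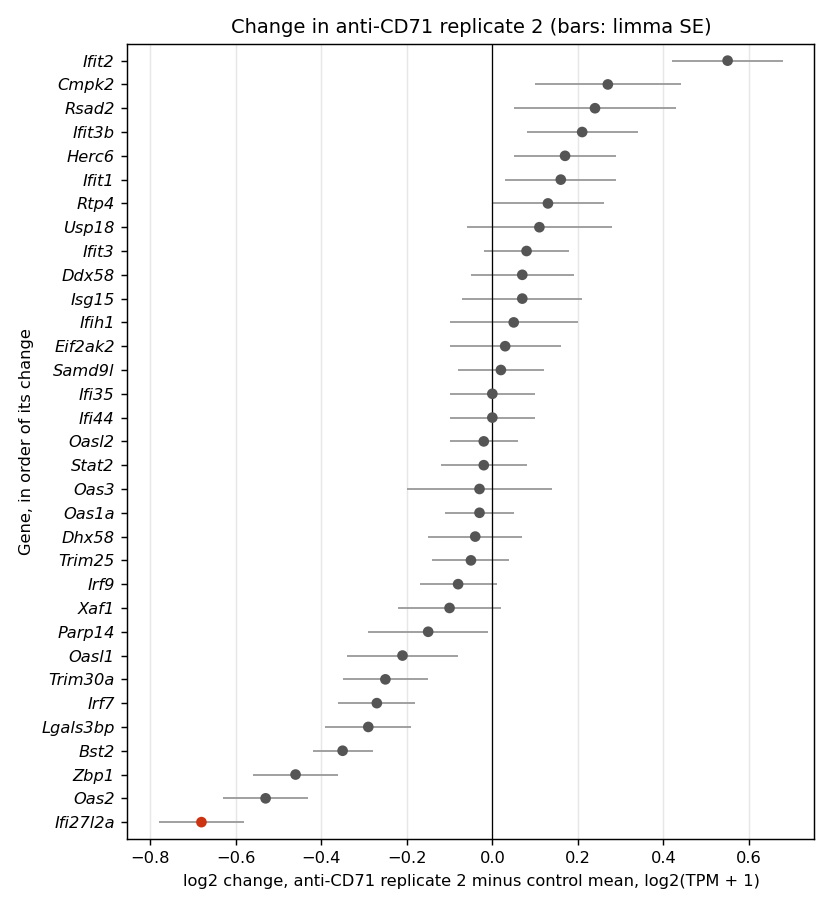
Log2 change of anti-CD71 replicate 2 against both controls for each of the 33 genes, with bars of 1 standard error from limma. Ifi27l2a, in red, was the gene with an adjusted p under 0.05, and the changes run from -0.68 to 0.55.

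The controls themselves were not level for these genes. Control replicate 1 was above control replicate 2 in 32 of the 33, with Ifi27l2a the exception, against 45.8% of all genes tested. The median log2 difference between them was 0.19, beside -0.01 over all genes. Measured against control replicate 1 alone, the median difference of anti-CD71 replicate 2 was -0.09, and against control replicate 2 alone it was 0.07.

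Other genes of the pathway were followed from fixed lists of ligands, receptor and signalling genes, inducing genes and further interferon-stimulated genes. Of 18 ligand genes 1 had a transcript that could be matched, Ifnb1, which encodes interferon beta, at 0.27, 0.27 and 0.37 TPM in both controls and anti-CD71 replicate 2. Counts of calls over 3 libraries stand against the 0.476% of all genes called higher and 2.39% lower. Of 11 receptor and signalling genes tested over 3 libraries, 0 were called higher and 1 lower, Ptpn6, which encodes the phosphatase SHP-1 (62.08 and 74.78 TPM in the controls, 36.81 TPM in anti-CD71 replicate 2; -0.87, limma adjusted p = 0.0474). The log2 change was below 0 in 10 of the 11, with a median of -0.37 beside -0.008 over all genes, and the exception was Socs1, an inhibitor of the JAK kinases (0.46, adjusted p = 0.0848). The receptor gene Ifnar1 was lower in both anti-CD71 libraries, at 17.58 and 17.90 TPM against 23.96 and 24.84 TPM, and passed over 4 libraries (-0.44, SE 0.08, limma adjusted p = 0.0476). Leaving out any single library ended that call, with adjusted p from 0.0683 to 0.348. Of the 4 receptor and signalling genes with at least 50% of their TPM listed, 0 stood above both controls in anti-CD71 replicate 1, against 30.4% of all genes so listed.

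Of 16 genes that induce type I interferon, 0 were called higher and 1 lower over 3 libraries, Irf5, a transcription factor of myeloid cells (39.91 and 41.94 TPM against 26.87 TPM; -0.59, limma adjusted p = 0.0483). The nucleic acid receptor Tlr9 (-1.02, limma adjusted p = 0.0898) and the kinase gene Ikbke (-0.65, adjusted p = 0.0658) had the 2 largest changes of this list and did not pass. The 2 inducing genes with at least 50% of their TPM listed, 0 of which stood above both controls in anti-CD71 replicate 1, were Irf3 and Sting1. Of 44 further interferon-stimulated genes tested over 3 libraries, 0 were higher and 2 lower, Ifitm2, a restriction factor of viral entry (883.66 and 942.54 TPM against 627.54 TPM; -0.54, limma adjusted p = 0.0334), and Sp110, a nuclear body protein (-0.55, adjusted p = 0.0474). Of the 7 further genes with at least 50% of their TPM listed, 6 stood above both controls in anti-CD71 replicate 1, against the 30.4% given above. Ifit1bl1, an IFIT relative, measured 3.31 and 2.32 TPM in the controls, against 12.62 and 6.47 TPM in the 2 anti-CD71 libraries. This gene was above both controls in both. None of the calls of Ptpn6, Irf5, Ifitm2 and Sp110 was kept with no filter on low values, with the filter of 1 TPM in 1 library or with median scaling. The call of Irf5 was also lost with a pseudocount of 0.1 TPM (limma adjusted p = 0.051) and with curated transcripts alone (adjusted p = 0.0612), and that of Sp110 with curated transcripts alone (adjusted p = 0.0697).

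Marker genes of cell types also differed between the libraries. Plasmacytoid dendritic cells are known as strong producers of type I interferon. Their 10 markers summed to 94.97 and 103.65 TPM in the controls and 76.12 TPM in anti-CD71 replicate 2. None of the 10 was at 0 in both controls. In anti-CD71 replicate 2, 5 of the 10 stood above both controls (39.5% of all genes tested) and 4 below both (42.5%). Irf8, also expressed by other myeloid cells, was the most abundant of the 10. It measured 50.96 and 59.00 TPM in the controls and 31.10 TPM in anti-CD71 replicate 2. The defining markers Siglech and Ccr9 stayed at or under 0.74 TPM in the 3 complete libraries. Both were highest in anti-CD71 replicate 2, at levels near 0. Cox6a2, the other defining marker, went the other way, at 2.54 and 3.57 TPM in the controls and 1.14 TPM in anti-CD71 replicate 2. Over listed transcripts Siglech stood at 0.06 and 0.09 TPM in the controls, 0.29 TPM in anti-CD71 replicate 1 against 0.07 TPM in anti-CD71 replicate 2. Siglech was thus highest in anti-CD71 replicate 1, at a level near 0. Ccr9 stood at 0.13 and 0.20 TPM in the controls, 0.14 TPM in anti-CD71 replicate 1 against 0.00 TPM in anti-CD71 replicate 2. Cox6a2 had no listed transcript. The 7 markers with a listed transcript summed to 11.94 and 9.15 TPM in the controls, 10.42 TPM in anti-CD71 replicate 1 against 8.44 TPM in anti-CD71 replicate 2. Over listed transcripts, macrophage and monocyte markers summed to 494.64 and 547.10 TPM in the controls, 339.75 TPM in anti-CD71 replicate 1 against 328.70 TPM in anti-CD71 replicate 2, with 5 of 5 genes below both controls in anti-CD71 replicate 1. Neutrophil markers, 5 of which had a listed transcript, summed to 4.50 and 1.46 TPM in the controls and to 154.72 TPM in anti-CD71 replicate 1 against 196.86 TPM in anti-CD71 replicate 2. Most of that sum was S100a9, at 142.39 TPM in the first and 183.50 TPM in the other anti-CD71 library. In anti-CD71 replicate 1, 3 of the 5 stood above both controls, against 30.2% of all genes with a listed transcript. Csf3r, 1 of the 5, stood below both. T and natural killer cell markers, 4 of them listed and 3 of these below both controls in anti-CD71 replicate 1, summed to 116.34 and 101.82 TPM in the controls, 88.11 TPM in anti-CD71 replicate 1 against 32.14 TPM in anti-CD71 replicate 2. Gzmb made up most of these sums, and Ncr1, at 9.53 and 11.54 TPM in the controls, 5.10 TPM in anti-CD71 replicate 1 against 2.52 TPM in anti-CD71 replicate 2, was low in both anti-CD71 libraries. Of 12 markers of differentiated epidermis, 7 were at 0 in both controls over all transcripts. The 5 with a listed transcript summed over it to 1.10 and 2.07 TPM in the controls. Their sum was 1.49 TPM in anti-CD71 replicate 1 against 27.90 TPM in anti-CD71 replicate 2. The part of these lists in the difference between the anti-CD71 libraries was not tested.

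Over the complete libraries the macrophage and monocyte list summed to 7620.59 and 9610.54 TPM in the controls and 4086.75 TPM in anti-CD71 replicate 2. In that list 14 of 15 genes stood below both controls, against 42.5% of all genes tested, and none was at 0 in the controls. Its part in the lower values of Ifi27l2a, Ptpn6, Irf5, Ifitm2 and Sp110 was not tested. Fibroblast and endothelial markers summed to 922.11 and 1258.97 TPM against 828.24 TPM, and erythroid markers to 3375.05 and 3748.39 TPM against 1006.88 TPM. Of the squamous markers, Krt5 was listed at 0 in both controls and Krt14 stood at 0.09 and 0.10 TPM there, against 31.40 and 36.37 TPM in anti-CD71 replicate 2, so these defining keratins of squamous epithelium were close to absent from the controls. The integrin genes Itga6 and Itgb4 were present in all 3, with Itga6 at 44.58, 47.12 and 44.65 TPM. Itgb4, at 93.68, 87.43 and 76.46 TPM, was below both controls in anti-CD71 replicate 2. The 12 squamous markers summed to 145.98 and 141.09 TPM in the controls and 257.08 TPM in anti-CD71 replicate 2. The 5 with a listed transcript summed over it to 66.79 and 74.58 TPM in the controls. Their sum was 52.35 TPM in anti-CD71 replicate 1 against 69.10 TPM in anti-CD71 replicate 2.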

How the data were processed

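Bulk RNA sequencing of 4 tumour libraries was used, 2 control and 2 anti-CD71, grouped by the labels. The authors deposited TPM per RefSeq transcript, a unit scaled for length and library total. The submitters' processing notes name the build GRCm38.p6, and the aligner and quantifier were not given in the sources used here. Transcripts were matched to gene symbols (58425 of 59881) and their TPM summed, including copies at a second locus. The deposited TPM were tested as log2(TPM + 1) with limma 3.58.1 in R 4.3.3 (trended variance), for genes with at least 1 TPM in 2 libraries, with Benjamini-Hochberg adjustment over all genes tested. This was done over all 4 libraries for genes with at least 90% of their TPM listed in anti-CD71 replicate 1, and over the 3 complete libraries for all genes. The scripts were tested on simulated data. The genes and lists were chosen with earlier results of these data known. The text names each of the 35 genes, pathway genes that were called or had the 3 largest changes of their list, and the 4 most abundant or the defining markers where a value turns on them. Ifi205, from the list of further interferon-stimulated genes, and genes outside these lists were named after their values were seen. Alternatives changed the pseudocount, filter, scaling, transcripts, listing share, replicate block and libraries. Settings combined with leaving out anti-CD71 replicate 2, the median over genes listed to 50% and the alternatives for pathway genes were chosen after seeing the data.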

Additional observations from a re-analysis of the deposited data

How the results depend on the processing

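Only 2 libraries a group, a partial anti-CD71 replicate 1 and TPM without depth limit these results. Over 3 libraries, genes called lower went from 286 to 0 with no filter, 12 with the filter of 1 TPM in 1 library and 187 with median scaling, and genes called higher from 57 to 0 with no filter and 38 with median scaling. Of the 33 genes, 1 called lower became 0 in each of these 3 settings. Over 4 libraries, genes called higher went from 13 to 1 with no filter, 1 with the filter in 1 library and 21 with median scaling. They went to 1 with curated transcripts alone and 2 with any listed transcript. Genes called lower went from 54 to 0, 7, 36, 10 and 2 in that order. With the replicate number as a block, 2 genes were higher and 1 lower, and 0 of the 5 genes passed (Usp18 adjusted p = 0.19, limma). The labels share numbers only, and 2 pairs cannot show a pairing. Leaving out 1 library in turn gave 1 to 35 genes higher, 0 to 61 lower, and 0 to 4 of the 5 genes higher, the 4 without anti-CD71 replicate 2. Without that library, 3 were higher with the 50% share, 4 with a pseudocount of 0.1 TPM, 4 with median scaling, 2 with the filter in 1 library and 0 with no filter, and over all genes 11, 9, 6 and 0 were higher and 23, 7, 5 and 0 lower in the last 4 settings. The median difference of anti-CD71 replicate 1 went from 1.58 to 0.93 over genes listed to 50%. Leaving out a control from the 3 libraries gave values with no test, and the sign changed in 5 of the 33 genes without control replicate 1 (0.01 to 0.15) and in 7 without control replicate 2 (-0.11 to -0.01), among them Isg15 and Usp18. Over 3 libraries the sign also reversed under median scaling for Oas1a (0.01), Oas3 (0.01), Oasl2 (0.02) and Stat2 (0.02), and with curated transcripts alone for Ifih1 (-0.16) and Eif2ak2 (-0.34). The 9 pathway genes run under the alternatives (those called or with the largest changes) kept their direction in them, and Ifnar1 passed in 1 of its alternatives over 4 libraries, with a pseudocount of 0.1 TPM. The cause was not tested.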

Other observations

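Among the 1563 genes with at least 90% of their TPM listed, 14 (0.896%) were at least 1.5 times both controls and anti-CD71 replicate 2 in anti-CD71 replicate 1. They include Ifit3, Ifit3b, Usp18 and Ifi35, and 10 others. Ifi205, an interferon-inducible gene among the further ones followed, measured 10.86 and 11.07 TPM in the controls, 25.83 TPM in anti-CD71 replicate 1 against 14.40 TPM in anti-CD71 replicate 2, with 99.8% of its TPM on a copy of the transcript at a second locus. Tnfsf10, which encodes the death ligand TRAIL, measured 2.97 and 3.17 TPM in the controls, 6.01 TPM in anti-CD71 replicate 1 against 2.81 TPM in anti-CD71 replicate 2. Trim30d, a relative of Trim30a, measured 6.11 and 5.59 TPM, then 9.49 and 4.68 TPM. These 3 genes stood highest in anti-CD71 replicate 1, and Tnfsf10 and Trim30d stood under both controls in anti-CD71 replicate 2.

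The chemokine genes Ccl3 and Cxcl2, which recruit myeloid cells, were high in both anti-CD71 libraries. Ccl3 measured 4.51 and 4.71 TPM in the controls, 42.06 TPM in anti-CD71 replicate 1 against 18.41 TPM in anti-CD71 replicate 2, and Cxcl2 measured 3.21, 7.19, 52.18 and 29.73 TPM in that order. Slpi, a secreted protease inhibitor, measured 3.90, 2.14, 15.50 and 10.07 TPM. The other 4 of the 14 were Clec2d, H4c4, 1700037C18Rik and LOC101055672, at 3.91 to 39.74 TPM in anti-CD71 replicate 1.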
